A study of Mus musculus with 1677 samples.

Results

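The spleen was followed in mice under time-restricted feeding (TRF) and ad-libitum feeding (ALF). All spleen columns of the deposited count table were used: 44 libraries out of 1035 in the whole series, 21 from TRF mice and 23 from ALF mice. Both groups were wild-type C57BL/6J mice, bought at 10 weeks of age and given normal chow for 2 weeks, and then Western diet (45% fat, 17% sucrose) for 7 weeks in 12 h of light and 12 h of dark. TRF mice had the diet for 9 h a day, from ZT13 to ZT22 (ZT counts hours from lights on), and ALF mice had it at all times. Spleens were taken at 12 clock times, every 2 h from ZT0 to ZT22, with 2 libraries for each group and time except TRF at ZT4, ZT10 and ZT12 and ALF at ZT10, which had 1. The labels do not say that libraries with different replicate numbers came from separate mice, so p-values measure the spread between these libraries, which may be technical. What was compared is the level of each polyadenylated RNA in TRF against ALF spleens over the day, in and outside the hours with food, and its 24 h rhythm in each group.

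The spleen filters blood and hosts immune responses. Its white pulp holds B-cell follicles and T-cell zones, and its red pulp holds macrophages that take up old erythrocytes and recycle their iron. In mice the red pulp also stays a site of blood formation in adult life, where erythroid, megakaryocyte and granulocyte precursors mature. Neutrophil precursors make the proteins of their granules early in development and stop before the cells are mature, so granule transcripts mark immature cells rather than circulating neutrophils.

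Total counts ran from 4.58 to 19.03 M in TRF libraries (median 8.87 M) and from 5.42 to 31.28 M in ALF libraries (median 10.65 M). Levels below are CPM (counts per M counts). Levels of single spleen genes and the summed globin genes were scaled by the trimmed mean of M values (TMM). The other summed list levels and the lung medians are CPM of each library's total count, without this scaling. Markers that define the spleen were present in both groups: the red pulp macrophage factor Spic had a median of 132 CPM in TRF and 136 CPM in ALF, and the adhesion molecule Vcam1 of red pulp macrophages had 1030 CPM in TRF and 986 CPM in ALF. RNA of the neighbouring pancreas was also present. The 22 pancreatic acinar markers (20 tested) summed to a median of 43750 CPM in TRF (range 410 to 163100) and 238 CPM in ALF (range 73.6 to 110600) outside the feeding hours, ZT0 to ZT12. At ZT14 to ZT22 they summed to 311 CPM in TRF (74.1 to 58390) and 249 CPM in ALF (67.6 to 67950). The list exceeded 10000 CPM in 10 TRF libraries (8 of them at ZT0 to ZT12) and in 9 ALF libraries (6 at ZT0 to ZT12). None of its 20 tested members passed the comparison of mean levels in edgeR, although all 20 had fold changes above 0 (median 1.02, log2); the part of this RNA in the results below was not tested beyond the fits that leave those libraries out or include the acinar level as a term. In bulk tissue, fewer cells of a type and less RNA per cell cannot be told apart, and this holds for every cell-type marker below.

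**Figure D1:**
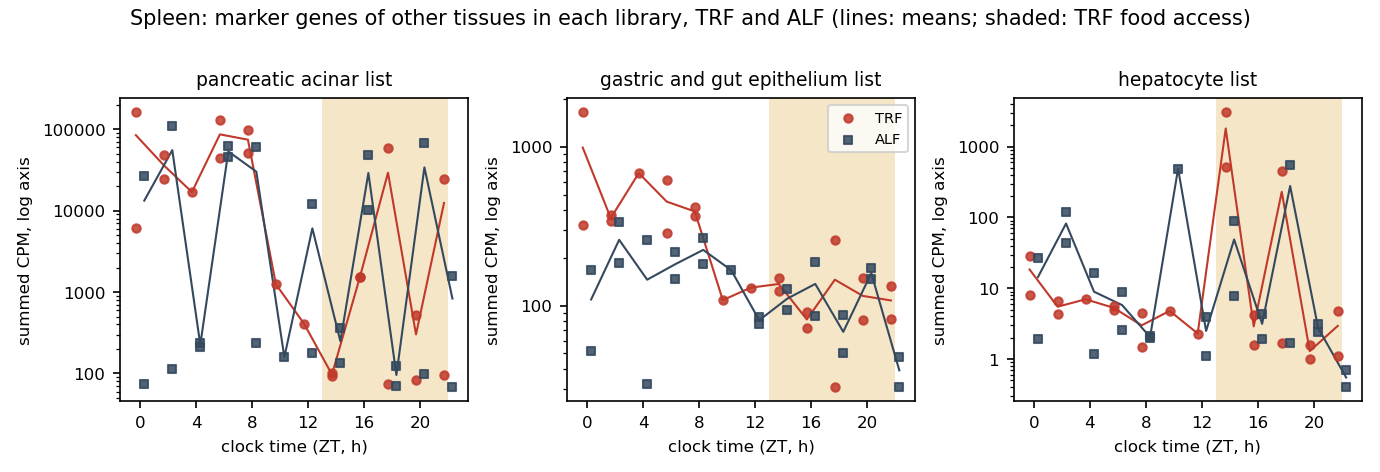
Summed CPM (log axis) of marker genes of pancreatic acinar cells, gastric and gut epithelium, and hepatocytes in each spleen library, by clock time, for TRF (red circles, left of each pair) and ALF (dark squares); lines join the means of each time and shading marks the TRF feeding hours. Acinar sums reach 163100 CPM in TRF at ZT0 and 110600 CPM in ALF, and the hepatocyte list peaks at 3092 CPM in a TRF library at ZT14.

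Mean levels over all clock times differed between the groups for 1417 of 13779 genes tested (10.3%; 798, or 5.79%, higher and 619, or 4.49%, lower in TRF; edgeR quasi-likelihood test with clock time as a factor, Benjamini-Hochberg adjusted p under 0.05). Rises were larger than falls: among genes past the threshold, 433 rose and 37 fell by at least 0.5 on the log2 scale, and 161 rose and 2 fell by at least 1. The 10 largest rises were all neutrophil granule genes. The median log2 fold change of all genes was -0.01. The count of 1417 depended on which libraries entered. Without the replicate 2 libraries no gene passed edgeR's test (1526 genes had an unadjusted p under 0.05), while without the replicate 1 libraries 1692 passed. Without the 19 libraries above 10000 CPM of acinar genes, no gene passed (1141 had an unadjusted p under 0.05), and only 7 clock times kept both groups, against 12 in the full set. With all libraries kept and the acinar level as a term, 1141 genes passed the threshold (687 higher and 454 lower in TRF). Leaving out ZT14, ZT16, ZT20, ZT22 or ZT4 gave 679, 615, 603, 731 and 865 genes. DESeq2 on all libraries called 1845.

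The neutrophil granule genes were the group furthest from 0. All 11 members tested rose in TRF, with log2 fold changes of 1.73 to 2.91 and a median of 2.72. Among the genes of this list, Mpo encodes myeloperoxidase, Elane, Prtn3 and Ctsg encode the serine proteases elastase, proteinase 3 and cathepsin G, Camp encodes the antimicrobial peptide cathelicidin, Ltf and Lcn2 bind iron and siderophores, Ngp is the neutrophilic granule protein and Fcnb is the lectin ficolin B. The promoters of 2 members that rose are shown here because both hold the C/EBP-type motif TTGCNNAA more than once. C/EBP factors, C/EBP-epsilon among them, control granule genes in maturing neutrophils. Capitals mark matches on either strand in the 300 bases from 250 before to 50 after the start (RefSeq, GRCm38.p6, given 5′ to 3′ in the direction of the gene). Ngp spans chr9:110419558-110419857, plus strand, and Fcnb spans chr2:28084829-28085128, minus strand.
Ngp: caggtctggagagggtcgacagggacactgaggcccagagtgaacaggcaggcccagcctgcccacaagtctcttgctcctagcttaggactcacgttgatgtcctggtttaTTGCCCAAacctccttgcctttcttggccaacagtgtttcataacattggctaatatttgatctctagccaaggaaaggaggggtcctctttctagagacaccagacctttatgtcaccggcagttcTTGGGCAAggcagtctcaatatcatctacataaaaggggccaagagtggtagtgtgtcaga
Fcnb: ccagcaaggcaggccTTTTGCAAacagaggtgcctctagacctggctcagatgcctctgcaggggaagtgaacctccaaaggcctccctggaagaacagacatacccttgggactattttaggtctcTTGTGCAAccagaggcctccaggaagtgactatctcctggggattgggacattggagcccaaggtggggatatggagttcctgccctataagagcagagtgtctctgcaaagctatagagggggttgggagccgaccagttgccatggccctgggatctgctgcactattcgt
The matches start at bases 113 and 240 in Ngp and at 16 and 128 in Fcnb. Of the 11 members, 5 had a match in any of their promoters, as did 12.2% of 27025 genes; among all 32851 promoters of the same length the share was 10.8%. The promoters shown were chosen after the values were seen, and a match is only a description of the letters.

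Summed over the list, granule transcripts had a lowest, median and highest level of 160, 647 and 3230 CPM in TRF libraries and 52.3, 87.3 and 1031 CPM in ALF libraries. All 21 TRF libraries lay above the ALF median, and the groups overlapped through a few ALF libraries. The high ALF libraries were ZT12 replicate 2 (1031 CPM), ZT0 replicate 1 (644 CPM) and ZT8 replicate 2 (529 CPM). Ngp had 53.4, 182 and 1323 CPM (lowest, median, highest) in TRF and 10.8, 19.4 and 405 CPM in ALF, a log2 fold change of 2.85 ± 0.44 (SE, n = 21 and 23 libraries, adjusted p = 0.000278, edgeR). Elane had 4.25, 17.0 and 113 CPM in TRF and 0.470, 2.27 and 44.7 CPM in ALF (2.80 ± 0.44, adjusted p = 0.000334, edgeR). Every TRF library exceeded the ALF median for both genes, and TRF was the higher group at 11 of 12 clock times. Mpo (2.69 ± 0.39), Prtn3 (2.90 ± 0.45), Camp (2.72 ± 0.40) and Fcnb (2.91 ± 0.44) each had an adjusted p of 0.000278. Chil3, a chitinase-like protein of granulocyte and macrophage precursors, had the smallest rise of the list (1.73 ± 0.30). Without the replicate 2 libraries the median of the list was 2.04 and all 11 members stayed positive, but none passed. With any one clock time left out all 11 passed. Without the acinar-rich libraries it was 2.47, again with 11 positive and none past the threshold for the mean over the day.

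**Figure D2:**
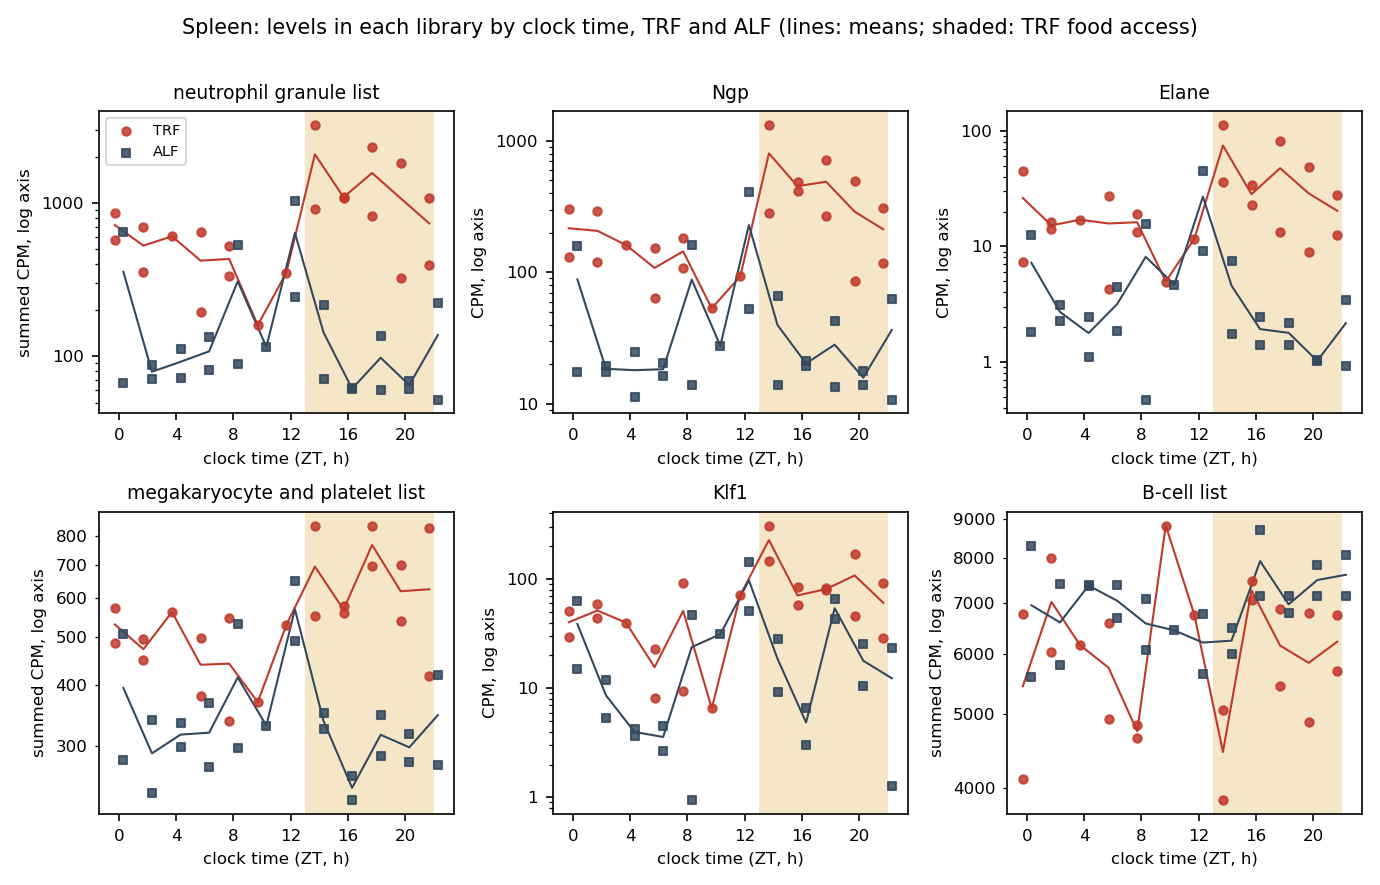
Levels in each spleen library by clock time in TRF (red circles, left of each pair) and ALF (dark squares), as summed CPM of the neutrophil granule, megakaryocyte and platelet, and B-cell lists and as CPM of Ngp, Elane and Klf1 (all log axes); lines join the means of each time and shading marks the TRF feeding hours. From ZT14 to ZT22 the neutrophil granule sum is 323 to 3230 CPM in TRF and 52.3 to 223 CPM in ALF, with no overlap.

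Markers of mature neutrophils moved the same way with smaller values, and 7 of 11 rose (median 0.92; 11 without ZT0). The calprotectin subunits S100a8 and S100a9, abundant calcium-binding proteins of neutrophil cytoplasm, rose by 1.82 ± 0.35 (adjusted p = 0.00196) and 1.89 ± 0.37 (adjusted p = 0.00203). The neutrophil surface protein Cd177 rose by 1.62 ± 0.33 and the collagenase Mmp8 by 1.71 ± 0.39. S100a8 ran from 75.5 to 1415 CPM in TRF (median 282) and from 27.8 to 954 CPM in ALF (median 87.4), so the ranges overlapped widely. Of 9 monocyte markers 3 rose: Chil3, which the granule list also holds, the clotting factor F10 (1.10 ± 0.23) and Ly6c2 (0.35 ± 0.09). Of 6 basophil and mast-cell markers 3 rose, namely the proteases Prss34 (2.14 ± 0.41), Mcpt8 (1.05 ± 0.27) and Cpa3 (0.53 ± 0.16). Prss34 was low in both groups, with a median of 3.61 CPM in TRF and 0.774 CPM in ALF.

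Megakaryocyte and platelet genes rose in 13 of 14 cases, by a median of 0.86. The list summed to 337, 546 and 842 CPM (lowest, median, highest) in TRF and 233, 325 and 648 CPM in ALF, and all 21 TRF libraries lay above the ALF median. Itga2b, the alpha subunit of the platelet fibrinogen receptor, had 29.6, 56.4 and 111 CPM in TRF and 17.8, 31.9 and 60.7 CPM in ALF (0.86 ± 0.14, adjusted p = 0.00045). Its partner subunit Itgb3 rose by 0.55 ± 0.09. The chemokines stored in platelet alpha granules, Ppbp and Pf4, rose by 0.87 ± 0.16 (adjusted p = 0.00111) and 0.90 ± 0.17 (adjusted p = 0.00153). Gp1bb and Gp5, parts of the von Willebrand factor receptor, rose by 1.14 ± 0.19 and 0.86 ± 0.16. The count was 12 to 14 with any clock time left out. Without the replicate 2 libraries the list's median was 0.55, and without the acinar-rich libraries 0.66, with 14 of 14 positive and none past the threshold in both.

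Erythroid genes rose in 15 of 21 cases, and the globin genes, products of late erythroid cells, did not pass. Klf1, the erythroid Krüppel-like transcription factor, had 6.55, 57.9 and 310 CPM (lowest, median, highest) in TRF and 0.941, 11.9 and 144 CPM in ALF (1.87 ± 0.42, adjusted p = 0.0063). TRF was higher at 10 of 12 clock times, and 3 TRF libraries exceeded all ALF libraries. Epor, the erythropoietin receptor, had 8.16, 25.9 and 89.8 CPM in TRF and 4.00, 12.5 and 61.0 CPM in ALF (1.15 ± 0.24, adjusted p = 0.00362). The membrane skeleton genes Add2 (1.81 ± 0.44) and Ank1 (1.66 ± 0.44) rose as well. The 4 globin genes Hbb-bs, Hbb-bt, Hba-a1 and Hba-a2 did not pass, with log2 fold changes of 0.03 to 0.10 (lowest adjusted p = 0.816). They summed to 7299, 31797 and 121253 CPM in TRF and 10965, 33345 and 76921 CPM in ALF. Hba-a1 and Hba-a2 are near-identical copies between which reads may have been split. Alas2, the erythroid enzyme of the first step of haem synthesis, had a log2 fold change of 0.05 ± 0.17 and did not pass either. The number of erythroid genes past the threshold was 3 without ZT16, 4 without ZT14, 5 without ZT20, 7 without ZT4 and 8 without ZT2 or ZT22, and none passed without the replicate 2 or the acinar-rich libraries.

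Of 11 genes of haem synthesis 8 rose, among them Alad, aminolevulinate dehydratase (0.81 ± 0.18, adjusted p = 0.00644). Of 12 stem and progenitor genes 8 rose, several of them known from erythroid and megakaryocyte precursors. Gata1, the transcription factor of both lineages, rose by 1.61 ± 0.33 (adjusted p = 0.00286), Tal1, its partner in a DNA-binding complex, by 1.49 ± 0.35, the carbonic anhydrases Car1 and Car2 by 1.41 ± 0.30 and 1.40 ± 0.36, and Myb by 0.47 ± 0.12. The 4 members that did not pass were Kit, the stem cell factor receptor (0.04 ± 0.06), Cd34 (0.07 ± 0.07), Gata2 (0.11 ± 0.09) and Meis1 (0.09 ± 0.08). Of 30 proliferation genes 21 rose, by 0.27 to 0.80, including the mitotic kinase Aurka (0.80 ± 0.19), the chromosomal passenger protein Birc5 (0.79 ± 0.20) and the replication helicase subunit Mcm2 (0.51 ± 0.12). The number past the threshold was 6 without ZT14 or ZT20, 7 without ZT16, 8 without ZT22, 9 without ZT4 and 10 without ZT2, and none passed without the replicate 2 or the acinar-rich libraries.

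The GATA motif AGATAA, which GATA1 can bind, was looked up on both strands in the promoters of the erythroid and megakaryocyte lists. It was present in 7 of 17 erythroid genes and 4 of 11 megakaryocyte genes with a promoter sequence, against 12.7% of all 27025 genes (11.2% of all promoters). One promoter of each list is shown, again chosen among genes that rose, with the matches in capitals. Epor spans chr9:21963527-21963826, minus strand, and Gp5 spans chr16:30310732-30311031, minus strand (RefSeq, GRCm38.p6).
Epor: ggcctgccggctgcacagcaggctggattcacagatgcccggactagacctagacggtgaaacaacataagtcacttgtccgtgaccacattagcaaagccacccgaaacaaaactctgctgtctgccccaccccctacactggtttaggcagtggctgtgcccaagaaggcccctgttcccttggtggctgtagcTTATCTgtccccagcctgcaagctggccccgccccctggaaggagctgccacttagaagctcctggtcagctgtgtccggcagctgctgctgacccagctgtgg
Gp5: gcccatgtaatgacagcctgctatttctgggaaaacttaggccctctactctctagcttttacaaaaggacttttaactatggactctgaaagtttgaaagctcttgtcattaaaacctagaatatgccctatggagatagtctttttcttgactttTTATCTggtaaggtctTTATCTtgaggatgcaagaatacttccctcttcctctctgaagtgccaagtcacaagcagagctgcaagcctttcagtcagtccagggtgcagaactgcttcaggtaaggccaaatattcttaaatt
The match starts at base 197 in Epor and the matches start at bases 158 and 174 in Gp5, all on the strand opposite to the gene.

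The hours with food were then compared with the rest of the day. At ZT14 to ZT22, 1373 genes differed between TRF and ALF (9.96%; 973, or 7.06%, higher and 400, or 2.9%, lower in TRF), whereas at ZT0 to ZT12 a single gene passed (0.00726%), the RNA-binding protein gene Rbm12b2, with a log2 fold change of -0.52. At ZT0 to ZT12 1400 genes had an unadjusted p under 0.05, and DESeq2 called 33. The difference between the 2 windows is the test of whether the feeding effect depended on the hour, and it was passed by 0 genes in edgeR (1235 at an unadjusted p under 0.05) and by 8 in DESeq2. Without the acinar-rich libraries 684 genes passed it, so the full set does not show a window-specific effect and this choice decides the call. That choice left out 8 of the 11 TRF libraries at ZT0 to ZT12, and 3 clock times there kept both groups. The TRF libraries left there, at ZT0, ZT10 and ZT12, were all of replicate 1. In simulated counts the full-set test found 8% of genes given a log2 difference of 0.5 and 78% of those given 1. Whether these shares hold for the spleen libraries was not tested. There the 11 granule genes had a median window difference of 2.22, and 0 of them passed in the full set. Among genes with at least 5 CPM, small p-values of the window difference belonged to Chil3 (feeding minus fasting 2.16), Wfdc21, a neutrophil protein (2.46), and Noct, nocturnin, which has a daily rhythm in many tissues (1.09), with adjusted p of 0.20 to 0.22. The feeding-window count fell to 404 without ZT14, 749 without ZT16, 554 without ZT20, 876 without the replicate 1 libraries and 0 without the replicate 2 libraries (1123 at an unadjusted p under 0.05). With the acinar level as a term it was 1383.

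Within ZT14 to ZT22 several genes separated the groups in every library. All 10 TRF libraries lay above all 10 ALF libraries in 35 genes (0.254%) and below them in 9 (0.0653%), and at ZT0 to ZT12 no gene separated 11 TRF from 13 ALF libraries. Of the 35, 8 are on the granule list (Camp, Chil3, Elane, Lcn2, Ltf, Mpo, Ngp and Prtn3), 4 on the megakaryocyte list (Gp5, Itga2b, Ppbp and Treml1) and 2 on the mature neutrophil list (S100a8 and S100a9). The 35 also hold Cebpe, which encodes C/EBP-epsilon, the surface antigen Ly6g, and the granule protein gene Olfm4, which no list held. Ngp had 86.4, 363 and 1323 CPM (lowest, median, highest) in TRF and 10.8, 18.6 and 65.7 CPM in ALF in this window (3.94 ± 0.57, adjusted p = 4.52e-05). Elane had 8.89, 30.8 and 113 CPM in TRF and 0.916, 1.57 and 7.40 CPM in ALF (4.12 ± 0.57, adjusted p = 2.75e-05). Ppbp had 116, 206 and 352 CPM in TRF and 39.3, 78.2 and 115 CPM in ALF (1.43 ± 0.19, adjusted p = 2.75e-05). The lowest TRF and highest ALF libraries of Ppbp were nearly level, while those of Ngp and Elane were further apart.

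List medians were larger in the feeding hours. Granule genes had a median of 3.94 at ZT14 to ZT22, with 11 of 11 past the threshold, and 1.64 at ZT0 to ZT12, with none. Mature neutrophil genes had 2.05 (10 of 11 rose) and 0.45, megakaryocyte genes 1.25 (13 of 14) and 0.51, erythroid genes 2.07 (16 of 21) and 0.59, and haem synthesis genes 1.31 (10 of 11) and 0.20. Without ZT14 only 1 erythroid and 5 haem synthesis genes passed at ZT14 to ZT22, and 4 erythroid genes did without ZT16 and 9 without ZT20. The median over all genes was -0.03 at ZT14 to ZT22 and 0.01 at ZT0 to ZT12. Without the acinar-rich libraries the granule median at ZT14 to ZT22 was 3.59, with all 11 members past the threshold. In that set 10 of 14 megakaryocyte genes, 7 of 11 haem synthesis genes, 3 of 11 mature neutrophil genes and 3 of 21 erythroid genes passed. TRF ZT14 replicate 2 held the highest granule sum (3230 CPM), and without it the granule median was 3.71 at ZT14 to ZT22 and 2.60 over the day.

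**Figure D3:**
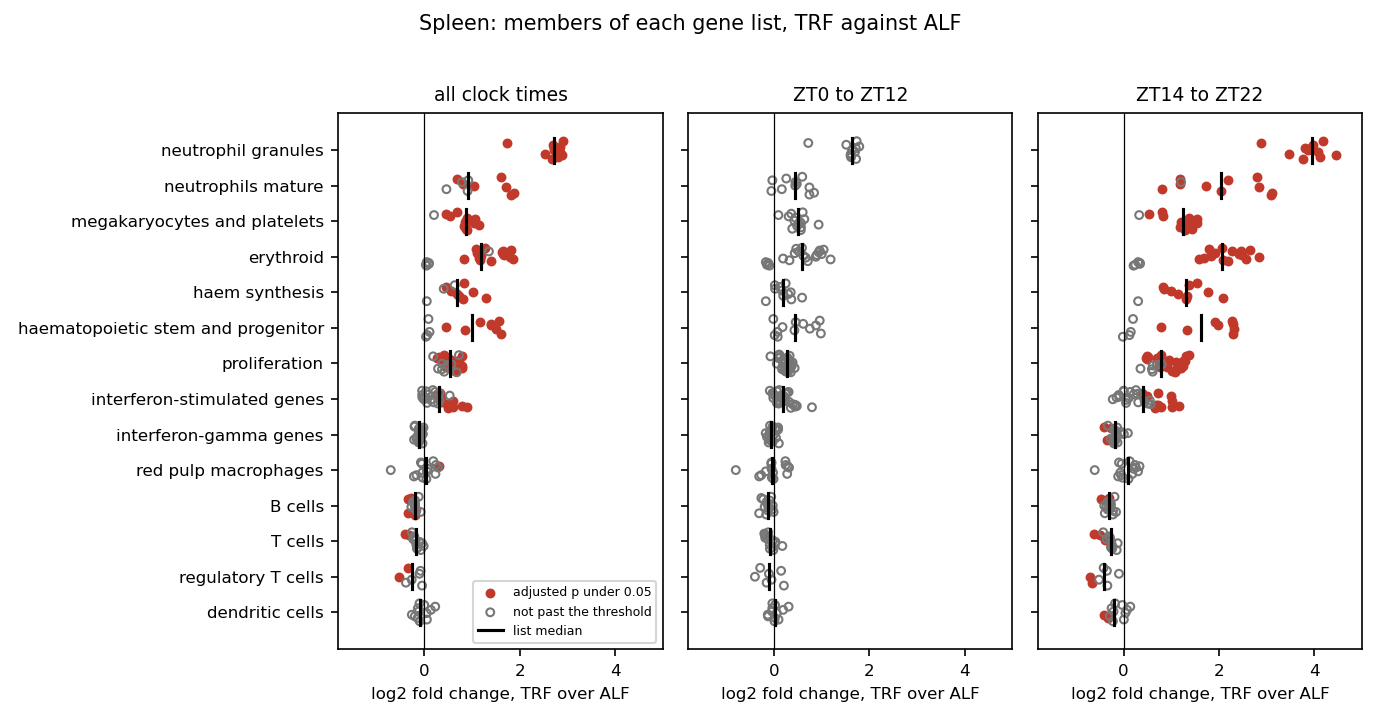
Log2 fold change (TRF over ALF) of every tested member of 14 gene lists over all clock times, at ZT0 to ZT12 and at ZT14 to ZT22; filled red points passed an adjusted p of 0.05, open points did not, and black bars are list medians. Granule genes sit near 2.72, 1.64 and 3.94, and B-cell and T-cell genes sit just below 0.

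Genes induced by type I interferon rose in 13 of 30 cases, by 0.27 to 0.89, and none fell. The members with the smallest p-values belong to the oligoadenylate synthetase family, which senses double-stranded RNA. Oas1g had 1.96, 5.01 and 13.6 CPM (lowest, median, highest) in TRF and 1.39, 2.68 and 4.99 CPM in ALF (0.89 ± 0.14, adjusted p = 0.000336), with TRF higher at 12 of 12 clock times. It is a close paralog of Oas1a (0.50 ± 0.09), and reads may be shared between them. Oas3 rose by 0.79 ± 0.14 (adjusted p = 0.000868) and Oasl2 by 0.57 ± 0.10. Isg15, a ubiquitin-like modifier, rose by 0.61 ± 0.18 (adjusted p = 0.0302), and Irf7, the transcription factor that amplifies the interferon response, by 0.32 ± 0.08 (adjusted p = 0.0136). Isg15 ran from 25.1 to 299 CPM in TRF (median 72.5) and from 19.9 to 93.4 CPM in ALF (median 53.2), and 8 of 21 TRF libraries exceeded all ALF libraries. For the mean over the day, 0 of 20 genes linked to interferon-gamma passed in either direction (median -0.11), where 10.3% of all genes tested passed. At ZT14 to ZT22, 3 of these 20 fell (list median -0.17), where 2.9% of all genes tested fell. The difference between the 2 interferon lists was not tested. Leaving out ZT22 left 8 of the type I interferon list past the threshold, and leaving out the replicate 2 libraries or the acinar-rich libraries left none.

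The core of the interferon-stimulated response element, GAAA repeated after any 2 bases, was present on either strand in 13 of 22 genes of the list with a promoter sequence, against 3.99% of all 27025 genes (3.44% of all promoters). Oas1g and Isg15 are shown because their matches overlap into one run. Oas1g spans chr5:120887564-120887863, minus strand, and Isg15 spans chr4:156200769-156201068, minus strand (RefSeq, GRCm38.p6).
Oas1g: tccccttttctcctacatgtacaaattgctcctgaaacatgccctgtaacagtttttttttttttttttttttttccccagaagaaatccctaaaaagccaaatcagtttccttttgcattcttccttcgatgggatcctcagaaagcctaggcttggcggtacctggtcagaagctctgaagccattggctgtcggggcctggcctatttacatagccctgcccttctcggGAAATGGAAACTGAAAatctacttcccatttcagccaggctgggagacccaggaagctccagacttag
Isg15: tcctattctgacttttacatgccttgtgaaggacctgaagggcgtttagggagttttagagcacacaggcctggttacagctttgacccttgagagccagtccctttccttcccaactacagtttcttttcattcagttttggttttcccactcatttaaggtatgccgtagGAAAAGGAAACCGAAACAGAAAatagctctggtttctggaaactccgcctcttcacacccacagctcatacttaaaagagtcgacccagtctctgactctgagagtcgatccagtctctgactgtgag
The matches start at bases 233 and 239 in Oas1g and at 173, 179 and 185 in Isg15. Oasl2 and Irf7, which also rose, had no match in this window.

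Some lymphocyte genes fell in TRF, by small amounts. Of 15 B-cell markers 5 fell and none rose, with log2 fold changes of -0.35 to -0.19, among them Ralgps2, the transcription factor Spib, the kinase Blk and Ms4a1 (CD20). Ralgps2 had 132, 195 and 283 CPM (lowest, median, highest) in TRF and 164, 250 and 295 CPM in ALF (-0.34 ± 0.07, adjusted p = 0.00194). The other 10 had fold changes of -0.27 to -0.08, so all 15 were below 0. Summed B-cell markers had 3859, 6160 and 8830 CPM in TRF and 5599, 7139 and 8725 CPM in ALF, and 3 of 21 TRF libraries were above the ALF median. CPM are shares of all reads, so levels of one list and the summed level of others are tied. Without the replicate 2 libraries none of the 5 passed and 3 of 15 members were above 0, and none passed without the acinar-rich libraries. The number that fell was 2 without ZT4, ZT8, ZT14, ZT16, ZT20 or ZT22, 3 without ZT2, ZT6 or ZT18, and 9 without ZT10.

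Of 14 T-cell markers the transcription factor Bcl11b (-0.32 ± 0.08) and the T-cell receptor signalling gene Themis (-0.40 ± 0.12) fell, with every TRF library at or below the ALF median for both, while the receptor subunit Cd3e had -0.07 ± 0.08 and did not pass. The regulatory T-cell list had 2 falls of 7, Ikzf2 (-0.53 ± 0.13) and the costimulatory receptor Icos (-0.35 ± 0.10). The largest falls among genes with at least 5 CPM included further genes known from B cells. Fam129c had 24.5 to 70.6 CPM in TRF and 34.7 to 100 CPM in ALF (median 62.2) (-0.66 ± 0.11, adjusted p = 0.000336) and was lower in TRF at all 12 clock times. Il5ra, the interleukin 5 receptor of B-1 cells and eosinophils, fell by 0.65 on the log2 scale (SE 0.15, adjusted p = 0.0063), and the B-cell transcription repressor Bach2 by 0.51 (SE 0.11, adjusted p = 0.00545). Bcl6 (-0.24 ± 0.06) was the 1 of 8 germinal centre genes that fell, and Irf4 (-0.27 ± 0.06) the 1 of 12 plasma cell genes, of which 4 were above 0. Of all genes tested 4.49% fell, so these single calls say little about the 2 lists. No dendritic-cell marker of 12 and no marginal-zone B-cell marker of 7 passed for the mean over the day. At ZT14 to ZT22, 2 of the 12 dendritic-cell markers fell, where 2.9% of all genes tested fell, and 0 of the 7 marginal-zone B-cell markers passed.

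Of 15 red pulp macrophage markers 1 rose, the complement component C1qb (0.31 ± 0.09, adjusted p = 0.0253), while Spic had -0.03 ± 0.05 and the adhesion molecule Vcam1 0.04 ± 0.07. Of all genes tested 5.79% rose, so this single call says little about the list. Of 4 marginal zone macrophage genes Cd209b (0.38 ± 0.09) and the scavenger receptor Marco (0.32 ± 0.09) rose. Iron handling had 4 rises and 1 fall among 15 genes, with 1 rise left without ZT14, ZT16 or ZT20, 2 without ZT2, ZT4 or ZT22, and 8 without the replicate 1 libraries. Tfrc, the transferrin receptor of dividing erythroid cells, rose by 0.83 ± 0.26 and haptoglobin, Hp, a product of liver and of granulocyte precursors, by 1.06 ± 0.29. Of 16 inflammatory cytokine and NF-kB genes 13 did not pass (list median -0.03), where 10.3% of all genes tested passed in either direction. Il1b rose (0.71 ± 0.21), whereas Tnf (-0.34 ± 0.11) and its feedback inhibitor Tnfaip3 (-0.24 ± 0.07) fell.

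Metabolic and stress genes gave further changes. The metallothioneins Mt2 and Mt1, metal-binding proteins that respond to glucocorticoids and metals, rose by 1.57 ± 0.23 (adjusted p = 0.000278) and 1.13 ± 0.21 (adjusted p = 0.00113). Of 18 glucocorticoid-responsive genes 3 rose, namely Mt2, Mt1 and Lcn2, which the granule list also holds. Of the others 1 fell and 14 did not pass (list median 0.02). Mt2 had 3.58, 17.2 and 71.0 CPM (lowest, median, highest) in TRF and 1.92, 5.71 and 18.4 CPM in ALF, and 10 TRF libraries exceeded all ALF libraries. Among 24 targets of PPAR-alpha, the fatty acid sensor of fasting, 6 rose, led by the lipase inhibitor Angptl4 (0.57 ± 0.12) and the thioesterase Acot1 (0.57 ± 0.12), and 3 did without ZT14. Among 20 genes of the amino acid response 5 rose, asparagine synthetase Asns by 1.03 ± 0.23 (2 without ZT20 and 3 without ZT14), and the cystine transporter Slc7a11 fell (-0.32 ± 0.10). Of 22 cholesterol synthesis genes 2 fell (4.49% of all genes tested did), among them Hmgcs1 (-0.25 ± 0.06), an early enzyme of the pathway. No gene of 25 respiratory chain genes or 28 ribosomal protein genes passed. Leptin, Lep, an adipocyte hormone, had the largest fall among genes past the threshold (-2.21 ± 0.43). It missed the rule for the named falls, which asked for at least 5 CPM and the same sign in both replicate numbers. The adipocyte protease Cfd rose (1.72 ± 0.37), while 11 of 13 adipocyte markers did not pass. The part of fat attached to the spleen in the Lep and Cfd values was not tested. The adipocyte list summed to a median of 257 CPM in TRF and 210 CPM in ALF. Of 7 gastric and gut genes Tff1 rose (1.54 ± 0.42), and that list summed to a median of 368 CPM in TRF and 167 CPM in ALF at ZT0 to ZT12.

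The 24 h rhythm was tested in each group. In TRF spleens 412 genes were rhythmic (2.99% of 13779) and in ALF spleens 57 (0.414%), with 37 in both. No gene passed the test of the difference in rhythm in edgeR (334 at an unadjusted p under 0.05) or in DESeq2, so the unequal counts do not show that rhythms differed. The TRF count varied with the libraries used: it was 96 with the acinar level as a term, 152 without ZT14, 120 without ZT6, 203 without ZT22, 211 without ZT8, 0 without the replicate 1 libraries and 10 without the replicate 2 libraries. Among rhythmic genes with at least 5 CPM, the largest amplitudes in TRF included genes known from other tissues, namely the pancreatic phospholipase Pla2g1b, the gastric proteins Gkn2 and Gkn1, and the liver protease inhibitors Serpina1e and Serpina1c, along with Pck1, Nupr1 and the clock gene Nr1d1. The acinar, gastric and hepatocyte levels given above vary by clock time, and without the acinar-rich libraries 2 genes were rhythmic in TRF and 9 in ALF. The part of the gastric and hepatocyte levels was not tested.

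Core clock genes form a transcriptional feedback loop, in which ARNTL and CLOCK or NPAS2 activate Per, Cry, Nr1d and the PAR-bZip genes Dbp, Tef and Hlf, and their products close the loop. Of 19 such genes 9 were rhythmic in TRF (Npas2, Per2, Per3, Cry1, Nr1d1, Nr1d2, Dbp, Tef and Hlf) and 7 in ALF (the same without Per3 and Cry1). Nr1d1, the haem-sensing repressor REV-ERB-alpha, had an amplitude of 1.59 ± 0.16 (log2, SE) and a peak at ZT11.0 ± 0.4 in TRF and 1.51 ± 0.15 with a peak at ZT10.4 ± 0.4 in ALF. Dbp peaked at ZT13.2 ± 0.4 in TRF and ZT12.2 ± 0.4 in ALF, with amplitudes of 1.09 ± 0.11 and 0.98 ± 0.11. Per2 peaked at ZT18.7 ± 0.6 in TRF and ZT18.3 ± 0.6 in ALF. All 7 genes rhythmic in both groups peaked later in TRF, by 0.04 to 1.28 h, and had the larger amplitude in TRF. Of all 37 genes rhythmic in both groups, 28 peaked later in TRF and 22 had the larger amplitude in TRF. The single peaks given above had standard errors of 0.4 to 0.6 h in each group, so the smaller of the clock-gene shifts lie within them. None of the 19 clock genes passed the test of the difference in rhythm (1, Tef, at an unadjusted p of 0.0165). In mean level Rora (-0.31 ± 0.09) and Clock (-0.20 ± 0.06) fell and none rose.

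**Figure D4:**
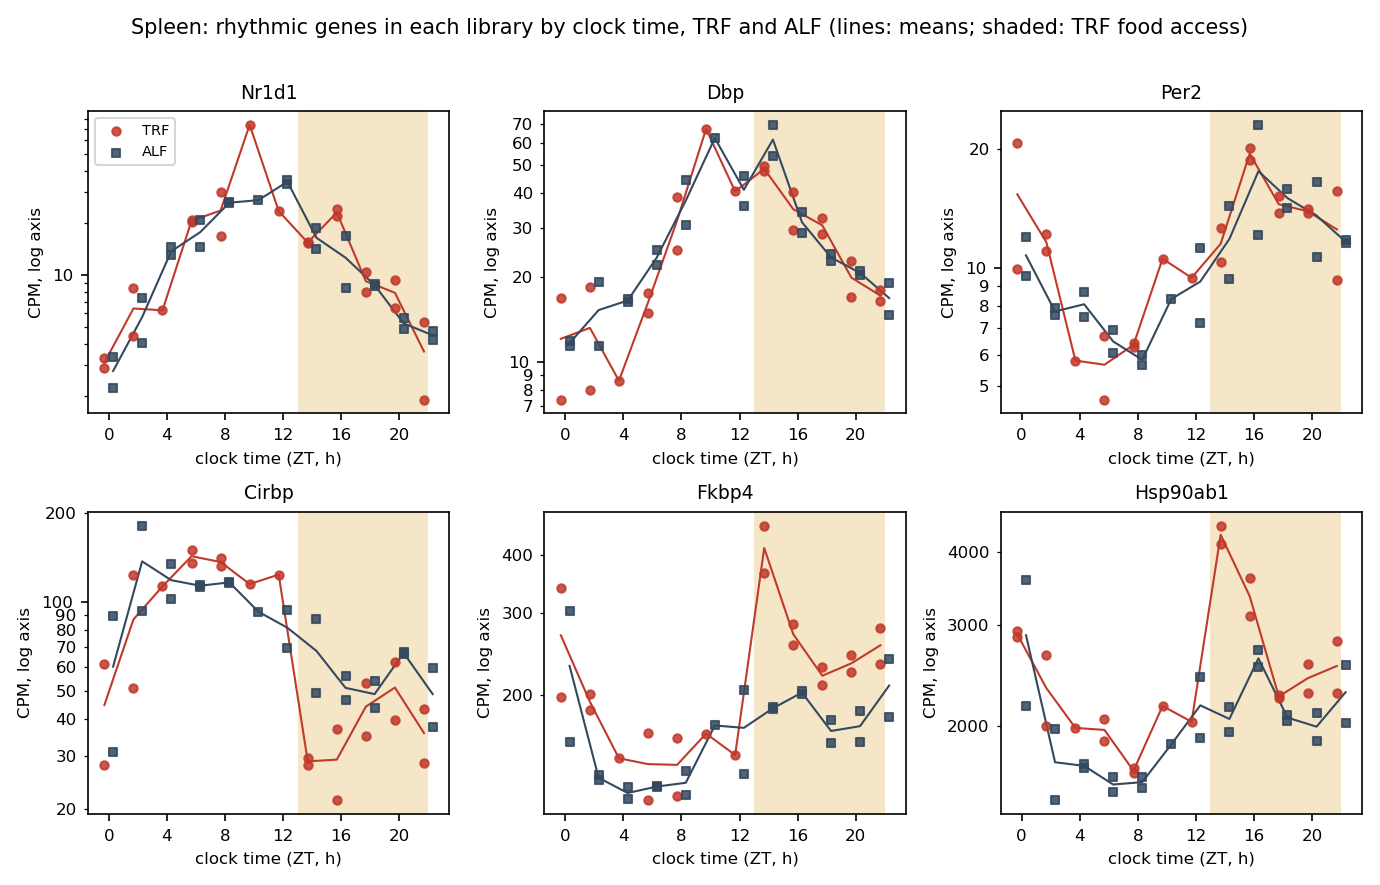
CPM (log axis) of the clock genes Nr1d1, Dbp and Per2, the cold-inducible Cirbp and the chaperone genes Fkbp4 and Hsp90ab1 in each spleen library by clock time, TRF (red circles, left of each pair) and ALF (dark squares); lines join the means of each time and shading marks the TRF feeding hours. At ZT14 both TRF libraries of Hsp90ab1 (4133 and 4454 CPM) lie above both ALF libraries (1956 and 2162 CPM).

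Of 23 cytosolic heat shock protein genes 10 were rhythmic in TRF, with amplitudes of 0.41 to 1.18 and peaks at ZT16.0 to ZT18.1, and 0 in ALF, where the same 10 had amplitudes of 0.09 to 0.78. The amplitude was larger in TRF for 21 of 23, and for 56.2% of all genes tested, but no member passed the test of the difference (5 at an unadjusted p under 0.05). Among the 10, Hspa8 had an amplitude of 0.70 ± 0.13 in TRF and 0.54 ± 0.12 in ALF, and Hsph1 1.14 ± 0.24 in TRF and 0.78 ± 0.24 in ALF. Fkbp4, a co-chaperone of steroid receptors, had 365 and 463 CPM in TRF at ZT14 and 188 and 186 CPM in ALF, and was past the threshold for the mean over the day (0.35 ± 0.08, adjusted p = 0.00951). At ZT14 to ZT22 10 of the 23 rose, but 0 did without ZT14 or without the replicate 2 libraries, 1 without the acinar-rich libraries and 6 without the replicate 1 libraries. The 2 TRF libraries of ZT14 also had hepatocyte sums of 3092 and 519 CPM, against 7.8 and 90.0 CPM in ALF at ZT14, and the part of this in the chaperone values was not tested. Cirbp, an RNA-binding protein that rises when body temperature falls, ran the opposite way, with peaks at ZT6.6 ± 0.6 in TRF and ZT6.4 ± 0.9 in ALF and amplitudes of 1.05 ± 0.15 and 0.66 ± 0.15. Of the 3 cold-inducible genes 3 were rhythmic in TRF and 1, Cirbp, in ALF.

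Lung, another tissue rich in leukocytes, was set beside the spleen to see which changes differed between organs (23 TRF and 23 ALF lung libraries, 1 joint fit). The feeding effect differed between spleen and lung for 364 of 15535 genes (2.34%; 308, or 1.98%, with the larger value in spleen). In the same fit 1823 genes (11.7%, 3.92% being lower in TRF) differed between TRF and ALF in spleen and 203 (1.31%, 0.76% being higher in TRF) in lung. For granule genes the difference passed for 9 of 11, with a median fold change of 2.72 in spleen and 0.09 in lung and no member past the threshold in lung. However, 6 of the 11 had a mean under 1 CPM in lung and entered the fit through spleen, so a change in lung was hardly detectable for them. The 4 members with at least 5 CPM in lung, Chil3, Lcn2, Ltf and Ngp, all passed, with lung fold changes of 0.09 ± 0.21, 0.31 ± 0.30, 0.75 ± 0.28 and -0.01 ± 0.37. Ngp had 2.85 in spleen (difference 2.86 ± 0.53, adjusted p = 0.00107), with a lung median of 7.64 CPM in TRF and 9.57 CPM in ALF. Mature neutrophil genes differed for 0 of 11, with medians of 0.92 in spleen and 0.54 in lung, where 9 of the 11 had at least 5 CPM. Erythroid genes differed for 3 of 21, with medians of 1.20 in spleen and 0.33 in lung, where 6 of the 21 averaged under 1 CPM. Haem synthesis differed for 6 of 11 genes, stem and progenitor genes for 6 of 12 and proliferation genes for 8 of 30, each with the larger value in spleen. The haem synthesis genes had means of 11.0 to 280.1 CPM in lung, while 5 of the 6 stem and progenitor genes and 5 of the 8 proliferation genes had at least 5 CPM there. Megakaryocyte genes differed for 1 of 14, with medians of 0.86 in spleen and 0.35 in lung, and B-cell genes for 0 of 15, with medians of -0.19 in spleen and -0.39 in lung. Of the 15 B-cell genes 5 fell in lung, where 0.547% of all genes fell. Without the replicate 2 libraries 15 genes differed between the organs, without the replicate 1 libraries 556, and without the acinar-rich libraries 50.

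**Figure D5:**
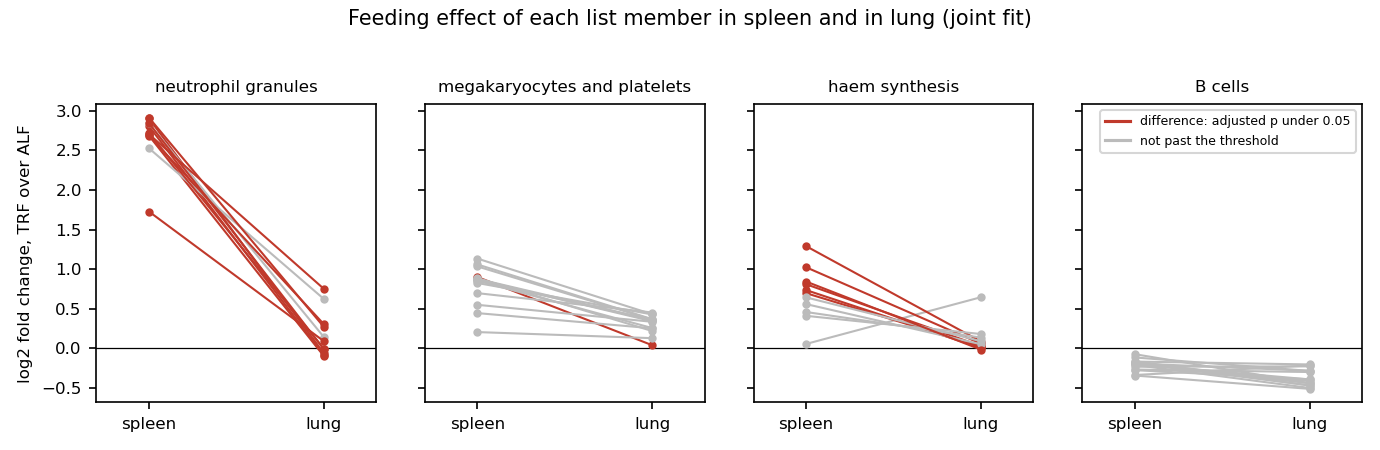
Log2 fold change (TRF over ALF) of each member of 4 gene lists in spleen and in lung from the joint fit, each line being 1 gene; red lines passed the test of the difference between organs. The 11 granule genes have a median of 2.72 in spleen and 0.09 in lung, where 6 of them average under 1 CPM, and the 15 B-cell genes lie below 0 in both.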

How the data were processed

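Poly(A) RNA libraries (TruSeq Stranded mRNA, Illumina sequencers, per the labels' protocols) were processed by the authors with CASAVA 1.8, FastQC 0.11.8, STAR 2.5.3a and HOMER 4.10 on mm10 (GRCm38), per the submitters' processing notes. The authors deposited a table of raw read counts per gene, treated here as estimated counts because not all are whole, and how the authors made the fractions is not given in the sources used here. Of the spleen values, 29% end in 0.5 and were rounded to whole numbers. Of 1035 columns, 945 were not used. Of 24537 rows, 4 with duplicated date-like names were left out.

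Counts were scaled by TMM, filtered with filterByExpr and tested with edgeR 4.0.16 (quasi-likelihood, two-sided, Benjamini-Hochberg over all genes tested, adjusted p under 0.05) with clock time as a factor. Rhythms used the cosine and sine of 24 h per group, and amplitudes and peaks came from limma 3.58.1 on log2 CPM (prior count 2), in R 4.3.3. The scripts were tested on simulated data. Total counts of 4.58 to 31.28 M per spleen library set the counting precision. DESeq2 1.42.0, other scalings, filters, GC offsets, a run-number term and left-out libraries or clock times were alternatives. The acinar-level term and leaving out acinar-rich libraries, TRF ZT0 replicate 2 or TRF ZT14 replicate 2 were chosen after seeing the data. Named genes were the 15 largest rises and falls at 5 CPM or more with the same sign in both replicate numbers, 6 each way per window, 8 per rhythm and organ test, up to 4 members of each list by p, and all clock genes. Further genes of the lists and of the sets that did not overlap were named after their values were seen. The members and lists were chosen with earlier results of these data known. Lists are described by counts, with no set test. Some members of the lists are counted but not reported by name here.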

Additional observations from a re-analysis of the deposited data

Results flagged for a closer look

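The feeding effect differed between spleen and lung, by the interaction test in edgeR, for 364 genes. The 8 genes with the smallest p-values at 5 CPM or more in spleen were each higher in spleen than in lung by this difference of log2 fold changes. It was 1.95 for Bex4, 0.87 for the phosphodiesterase Pde5a, 0.70 for sorbitol dehydrogenase Sord, 2.97 for Prtn3, 0.57 for the folate enzyme Mthfd1, 1.00 for Epdr1, 0.77 for Myb and 2.86 for Ngp. Prtn3 averaged 0.987 CPM in lung, so a change there was hardly detectable. Without the acinar-rich spleen libraries 50 genes passed, and without the replicate 2 libraries 15.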

How the results depend on the processing

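The labels do not say whether equal replicate numbers pair the libraries. Over 9 pairs the correlation of deviations ran from -0.26 to 0.496, with 4 above 0.1, which does not settle it. With the replicate block the mean-level count was 1885, the feeding-window count 1474, the fasting-window count 20, the rhythm counts 456 in TRF and 61 in ALF, and the spleen-lung count 374. Leaving out the libraries above 10000 CPM of acinar genes gave 0 genes for the mean level, 0 at ZT0 to ZT12, 321 at ZT14 to ZT22, 684 for the window difference, 2 and 9 for rhythms in TRF and ALF, and 50 for spleen against lung. These alternatives use fewer libraries (25 of 44). With the acinar level as a term, 1141 genes passed for the mean level, 1 at ZT0 to ZT12 and 1383 at ZT14 to ZT22. In that fit the window difference was passed by 0 genes, and rhythms numbered 96 in TRF and 43 in ALF. A minimum log2 fold change of 0.5 left 470 genes of the mean level. At ZT0 to ZT12 the count was 33 with DESeq2, 0 with GC offsets with or without the block, 0 without ZT0 and ZT22, 4 with DESeq2 size factors or a minimum of 5 CPM, 10 without a filter and 2 with the run term. DESeq2 called 8 genes for the window difference, 806 rhythmic genes in TRF and 197 in ALF. Rhythms in ALF numbered 93 with GC offsets and 101 with the block added; those in TRF numbered 659 with both, 207 without TRF ZT14 replicate 2, 96 with the acinar term and 796 without a filter. The rhythm difference was passed by 37 genes without a filter. With each clock time left out, counts ran from 603 to 2060 (mean level), 0 to 77 (ZT0 to ZT12), 404 to 1787 (ZT14 to ZT22), 120 to 581 (rhythm TRF) and 20 to 62 (rhythm ALF). Without replicate 1 and without replicate 2 they were 1692 and 0, 158 and 0, 876 and 0, 0 and 10, 6 and 1, and 556 and 15 for spleen against lung. Without a filter, feeding-window calls split into 975 higher and 231 lower in TRF, against 973 and 400. The cause of these shifts was not tested. Over these settings 6818 values of named genes kept their side of the threshold, 791 lost it and 187 gained it.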
